A study of Mus musculus with 6 samples.

Results

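The pluripotency exit genes are 9 regulators whose RNA is abundant in mouse embryonic stem (ES) cells or early epiblast and which are shut down in sequence as cells differentiate: Pou5f1, Nanog, Sox2, Utf1, Lin28a, Lin28b, Sall4, Dppa4 and Zfp42. They were taken by gene symbol from a table of 14005 genes, which listed 8 of the 9. The table analysed here has no row for Utf1 (ENSMUSG00000047751), by symbol or by identifier, so Utf1 is given no value. The 8 listed genes were read as a measure of how far each library had left the ES cell state. No undifferentiated ES cell library was part of the comparison, so levels are relative among these 6 libraries.

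RNA was sequenced from cells of embryoid bodies (EBs), aggregates in which ES cells differentiate, at day 3.5. The cells were positive for FLK1, the VEGF receptor encoded by Kdr that marks mesoderm able to give blood and endothelium. One group was WT (J1 ES cells) and the other was Scl-/-, an ES cell line lacking Scl (Tal1), the transcription factor that starts the blood programme. The ES cells were differentiated on 3 independent occasions, and the labels number the libraries of each genotype 1 to 3 (n = 3 per group). The labels give the strain as C57Bl/6 X Sv129 for WT 1, WT 2 and Scl-/- 1, and as Sv130, Sv131 and Sv132 in the same position for Scl-/- 2, WT 3 and Scl-/- 3. Both groups were selected with a PE-conjugated antibody to FLK1 on magnetic columns, and each genotype was represented by 1 ES cell line, so a difference between the genotypes cannot be told apart from a difference between the lines. Values are CPM, read counts brought to a common library size by the authors, over libraries of 38623641 to 47621120 reads on listed genes. Tal1 itself ranged from 182 to 306 CPM in WT and from 5.68 to 9.35 CPM in Scl-/-, and Kdr from 724 to 868 CPM over all libraries. In bulk RNA, fewer cells expressing a gene and less RNA per cell cannot be told apart.

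OCT4 (Pou5f1), SOX2 and NANOG are the transcription factors at the centre of the ES cell network. OCT4 and SOX2 bind side by side at composite octamer and SOX motifs near many ES cell genes, including their own. As cells leave pluripotency, naive genes such as Zfp42 are silenced early, SOX2 is kept mainly in the neural branch, and Pou5f1 and Nanog persist for a time in the primitive streak and early mesoderm. LIN28A and LIN28B are RNA-binding proteins that block maturation of the let-7 microRNAs, and they outlast the core factors in the embryo.

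The promoters of 3 members, Nanog, Sox2 and Zfp42, hold the octamer core TTTGCAT on 1 of the strands. These promoters are shown because they hold it, so its presence in them is not a result. Each window is the 250 bases upstream of a RefSeq start (GRCm38.p6), placed on mm9 by exact match, 5′ to 3′ on the gene's strand. The windows lie at chr6:122657257-122657506 on the plus strand (Nanog), chr3:34548667-34548916 on the plus strand (Sox2) and chr8:44392364-44392613 on the minus strand (Zfp42). Capitals mark the octamer core TTTGCAT and the SOX core ACAATG, or their reverse complements.
Nanog: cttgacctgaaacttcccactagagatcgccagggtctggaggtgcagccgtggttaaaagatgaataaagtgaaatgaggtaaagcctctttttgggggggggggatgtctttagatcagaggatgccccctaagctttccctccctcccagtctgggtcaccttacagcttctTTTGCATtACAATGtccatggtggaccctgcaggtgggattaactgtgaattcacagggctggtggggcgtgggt
Sox2: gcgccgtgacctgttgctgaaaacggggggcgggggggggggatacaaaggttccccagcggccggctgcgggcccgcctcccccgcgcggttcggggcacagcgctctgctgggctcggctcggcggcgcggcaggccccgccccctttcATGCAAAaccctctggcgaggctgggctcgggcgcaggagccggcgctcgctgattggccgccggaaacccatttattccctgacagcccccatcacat
Zfp42: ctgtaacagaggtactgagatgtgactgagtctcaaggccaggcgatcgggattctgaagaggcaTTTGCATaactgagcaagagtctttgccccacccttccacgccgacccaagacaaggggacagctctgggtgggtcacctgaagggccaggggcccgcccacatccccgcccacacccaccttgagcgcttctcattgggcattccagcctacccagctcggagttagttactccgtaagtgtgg
The octamer core began 75 bases before the start in Nanog, 99 in Sox2 (as ATGCAAA) and 185 in Zfp42. In Nanog it was followed by the SOX core on the same strand with 1 base between them, a joined string that overlaps both single motifs. Over 32851 windows of the same length from all genes, searched on both strands, TTTGCAT was found in 4.12%, ACAATG in 10.7% and the joined string in 0.00609%. The joined string was in 2 windows, both of Nanog, which overlap and hold the same single site. It began 151 bases before the start of the Nanog window not shown. Of the 9 genes, 7 had a window, and those of Pou5f1, Utf1, Lin28a and Lin28b did not hold TTTGCAT. The Lin28b window lay 16194 bases from the annotated gene start, and 1 of the Pou5f1 windows 2770 bases from its own, so they leave other starts unsearched. These matches describe the letters only.

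All 8 listed genes were detected in all 6 libraries, at 62 reads or more. To compare levels between genes, CPM was divided by the length of all annotated exons in kilobases. Lin28a had the highest mean level over the 6 libraries, 149.6 CPM per kb, and its lowest library (127 CPM per kb) lay above the highest of Sall4 (109 CPM per kb). Sall4 followed at 83.7 and Pou5f1 at 53.2 CPM per kb, with ranges that overlapped. Lin28b came next at 13.1 CPM per kb, below every Pou5f1 library, and then Nanog at 6.68, Zfp42 at 3.76, Dppa4 at 2.49 and Sox2 at 1.75 CPM per kb, each overlapping its neighbour in the order. Lin28b has 9065 exon bases in all but a transcript of 5402 bases, and Pou5f1 has 2256 but a transcript of 1347 bases. Their levels per kb therefore depend on the length used, and so may their places in this order. Against the 13991 genes tested, whose median was 9.54 CPM per kb, Lin28a stood at percentile 97.8, Pou5f1 at 90.3, Nanog at 41.1 and Sox2 at 15. Zfp42, Dppa4 and Sox2 lay below that median in every library. Nanog lay below it on its mean, but was at 11.7 and 10.01 CPM per kb in Scl-/- 2 and 3.

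**Figure D1:**
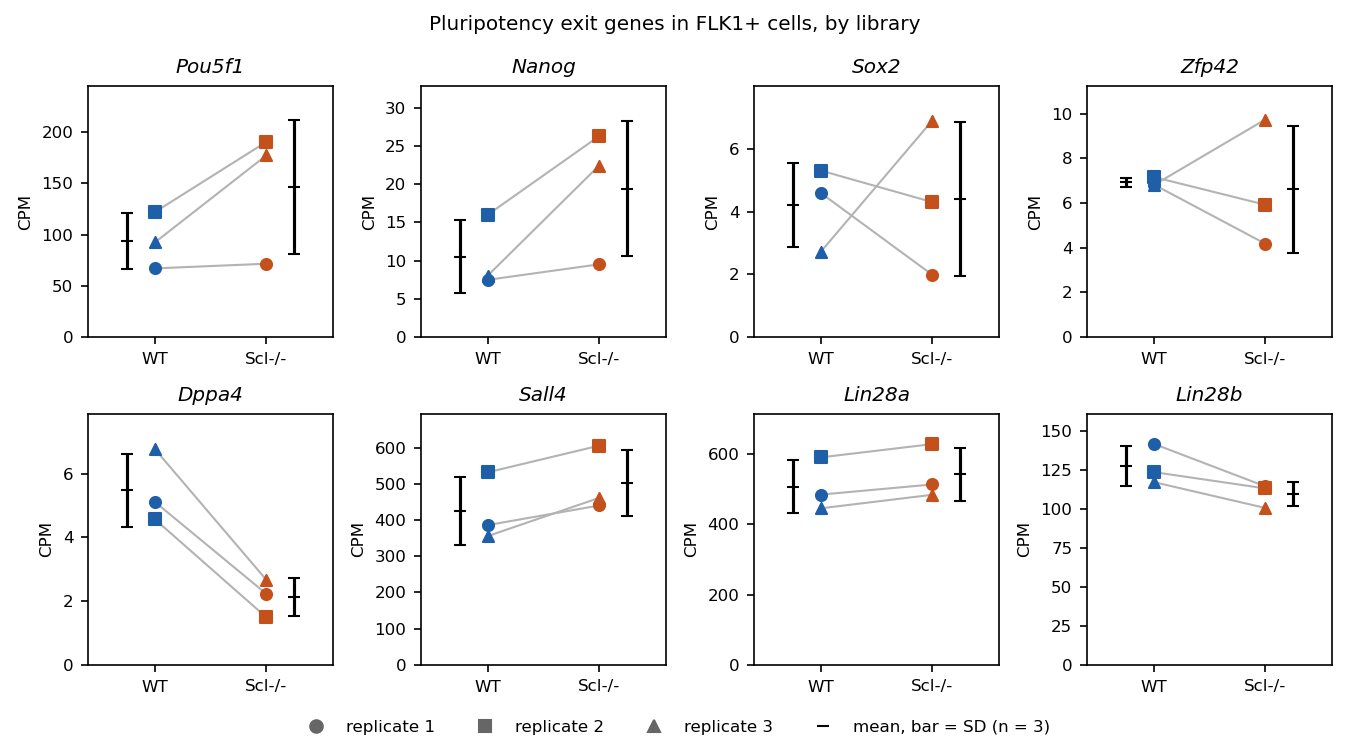
CPM of the 8 listed genes in each library (vertical axis from 0, a separate scale for each gene); point shapes give the replicate number, grey lines join libraries of the same number, and black bars are the mean and SD of 3 libraries. Pou5f1 and Nanog were higher in Scl-/- in every pair with the smallest step in replicate 1, Dppa4 was lower in every Scl-/- library than in any WT library, and the lines of Sox2 and Zfp42 ran in both directions.

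The question put to these genes was whether loss of SCL changed how far FLK1+ cells had left the ES cell state. Each gene was tested with limma on log2(CPM + 0.5), on which scale fold changes of low genes are understated. A gene was called at a Benjamini-Hochberg adjusted p under 0.05 over all tested genes and a log2 fold change beyond 0.48 in size. On genotype alone, 0 of the 8 were called in either direction, where 1.57% of all genes were called lower and 0.793% higher in Scl-/-. An unadjusted p under 0.05 was reached by 1 member, Dppa4. Same-numbered libraries deviated together, so the fit was also made with the replicate number as a block. With the block, 2 of the 8 were called higher (Pou5f1 and Nanog) and 1 lower (Dppa4), where 6.04% of all genes were called higher and 6.60% lower. The median log2 fold change of the 8 was 0.03, against 0.01 over all tested genes. None of the 8 lies on chromosome 1 or 11, whose genes had median log2 fold changes of -0.29 and 0.31. The chromosomes that carry the 8 had medians from -0.01 to 0.03.

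Pou5f1 (ENSMUSG00000024406, chr17:35642982-35647721, plus strand) encodes OCT4, without which the pluripotent state is not kept. It stood at 67.1, 121.9 and 92.3 CPM in WT 1 to 3 and at 71.6, 190.3 and 177.1 CPM in Scl-/- 1 to 3. Both replicate 1 libraries were the lowest, and Scl-/- 1 lay within the WT range, so the groups overlapped. Means were 93.8 ± 27.5 CPM in WT and 146 ± 65.1 CPM in Scl-/- (SD, n = 3 each). Scl-/- exceeded WT by 0.56 on the log2 scale (SE 0.39, adjusted p = 0.540 by limma) without the block, and with it the SE fell to 0.14 and the adjusted p to 0.0222. The 3 same-numbered pairs differed by 0.09, 0.64 and 0.94 on the log2 scale. The blocked call was lost when any library of replicate 2 or 3 was left out (adjusted p from 0.125 to 0.146, log2 fold change from 0.37 to 0.52) and was kept when either library of replicate 1 was left out. In the blocked fit, leaving out either library of a number removes that pair from the genotype comparison. Both leave-outs of a number therefore gave the same fold change, for this and every other member, and are not separate checks.

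Nanog (ENSMUSG00000012396, chr6:122657507-122664651, plus strand) encodes the homeodomain factor that stabilises the naive state and is expressed again in the posterior epiblast. Its levels were 7.50, 16.0 and 8.06 CPM in WT and 9.53, 26.3 and 22.5 CPM in Scl-/-, in replicate order. As for Pou5f1, Scl-/- 2 and 3 were the highest libraries, while Scl-/- 1 lay among the WT values. The means were 10.5 ± 4.77 CPM in WT and 19.4 ± 8.78 CPM in Scl-/- (SD, n = 3 each). The log2 fold change was 0.82 (SE 0.42, adjusted p = 0.384 by limma) on genotype alone and had an SE of 0.19 and an adjusted p of 0.0177 with the block. The pairs differed by 0.33, 0.70 and 1.42. Leaving out any library of replicate 2 or 3 again ended the blocked call, with adjusted p from 0.0650 to 0.0904 and log2 fold changes from 0.51 to 0.87. Without the intensity trend in the variance, neither gene was called with the block (adjusted p = 0.0796 for Pou5f1 and 0.0563 for Nanog). A stretch of 1325 bases of the Nanog transcript had a copy elsewhere in mm9 at 97.4% identity, and 385 bases of Pou5f1 had an identical copy, so reads could be split or dropped there. The same limit holds for stretches of Zfp42 (617 bases, 97.7%), Lin28a (572 bases, 98.1%) and Sall4 (467 bases, 90.15%).

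Sox2 (ENSMUSG00000074637, chr3:34548927-34551383, plus strand), the partner of OCT4 and later a neural progenitor factor, was the lowest of the 8 per kilobase. It was measured at 4.59, 5.31 and 2.72 CPM in WT and at 1.99, 4.30 and 6.89 CPM in Scl-/-. The highest and the lowest of the 6 libraries were both Scl-/-, and the pairs differed by -1.03, -0.27 and 1.20 on the log2 scale. Its log2 fold change was -0.04, with a 95% interval from -1.0 to 0.93 (limma adjusted p = 0.987), which leaves room for a change of up to about that size in either direction. The ratio of Pou5f1 to Sox2 CPM ranged from 14.6 in WT 1 to 44.2 in Scl-/- 2.

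Zfp42 (ENSMUSG00000051176, chr8:44380422-44392363, minus strand) encodes REX1, a zinc finger protein used as a marker of the naive state. The 3 WT libraries lay close together at 6.82, 7.16 and 6.80 CPM, and the Scl-/- libraries were spread around them at 4.18, 5.92 and 9.73 CPM. For Zfp42 the log2 fold change was -0.14, with a 95% interval from -0.78 to 0.51 (limma adjusted p = 0.892), and the pairs differed by -0.65, -0.25 and 0.49. For both Sox2 and Zfp42, Scl-/- 1 was the lowest and Scl-/- 3 the highest library. The sign of both fold changes turned when single libraries were left out, so no direction is given.

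Dppa4 (ENSMUSG00000058550, chr16:48283848-48294405, plus strand) encodes a DNA-binding protein of ES cells and germ cells that acts with DPPA2. Its levels were 5.12, 4.57 and 6.77 CPM in WT and 2.23, 1.5 and 2.68 CPM in Scl-/-, so every Scl-/- library lay below every WT library. These values stand for 175 to 279 reads in WT and 62 to 118 reads in Scl-/-. The means were 5.49 ± 1.15 CPM and 2.14 ± 0.595 CPM (SD, n = 3 each). The log2 fold change was -1.19 (SE 0.24, unadjusted p = 0.00129, adjusted p = 0.0519 by limma), just short of the threshold. With the block it was called (SE 0.14, adjusted p = 0.00117), and it kept that call with any single library left out. Either library of a replicate number gave the same log2 fold change there, -1.27, -1.12 and -1.19 without replicate 1, 2 and 3. The 6 leave-outs were therefore 3 checks, 1 for each pair. The pair differences were -1.04, -1.34 and -1.20, the most even of the 3 genes called with the block. The levels of Dppa2, its partner on the same chromosome, were 4.82, 1.67 and 3.93 CPM in WT and 2.89, 1.5 and 4.04 CPM in Scl-/-, with a log2 fold change of -0.25 (95% interval from -1.22 to 0.72, limma adjusted p = 0.857). Dppa2 was picked for mention after its values were seen, and the difference between the 2 genes was not tested. The Dppa4 transcript of 1534 bases had 3 matches elsewhere in mm9, on 2 chromosomes, the longest of 1040 bases at 98.1% identity. Reads could be split or dropped there, and the effect on its counts was not tested.

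Sall4 (ENSMUSG00000027547, chr2:168573832-168593443, minus strand) encodes a zinc finger protein that works with OCT4 and stays on in early mesoderm and germ cells. It reached 386, 532 and 356 CPM in WT and 440, 606 and 461 CPM in Scl-/-. The replicate 2 library was the highest of each group, and the ranges of the groups overlapped. All 3 pairs were higher in Scl-/-, by 0.19, 0.19 and 0.37. The log2 fold change of 0.25 had an SE of 0.18 on genotype alone (adjusted p = 0.573 by limma) and of 0.06 with the block (adjusted p = 0.0255), but was under the fold threshold, so it was not called. Opposite-strand lincRNA Gm14261 overlaps 9.50% of the Sall4 exon bases, and the sources used here do not state whether counting used strand.

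Lin28a (ENSMUSG00000050966, chr4:133559245-133574756, minus strand) was at 485, 591 and 446 CPM in WT and at 514, 628 and 484 CPM in Scl-/-. The pairs differed by only 0.08, 0.09 and 0.12 on the log2 scale, all higher in Scl-/-. Its genotype difference was 0.10 on the log2 scale, with a 95% interval from -0.24 to 0.44 on genotype alone and from -0.03 to 0.23 with the block (limma adjusted p = 0.836 and 0.257). The spread among WT libraries was larger than the genotype difference. Without Scl-/- 2 the sign on genotype alone turned, to -0.01. Lin28a shares 103 exon bases (2.94%) with the opposite-strand lincRNA Gm13061.

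Lin28b (ENSMUSG00000063804, chr10:45096426-45206201, minus strand), which keeps let-7 precursors from being processed, went the other way. Its levels were 142, 124 and 117 CPM in WT and 114, 113 and 100.5 CPM in Scl-/-, so the groups did not overlap. The log2 fold change was -0.22 (SE 0.11, adjusted p = 0.361 by limma; with the block SE 0.06, adjusted p = 0.0411), under the fold threshold in both fits. The ratio of Lin28a to Lin28b CPM ranged from 3.42 to 4.78 in WT and from 4.49 to 5.56 in Scl-/-.

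Over the 8 genes, the groups did not overlap for 2 in the lower direction (Dppa4 and Lin28b) and for 0 in the higher direction, where 10.7% and 11.0% of all tested genes did so. All 3 pairs were higher in Scl-/- for 4 genes (Pou5f1, Nanog, Sall4 and Lin28a) and lower for 2 (Dppa4 and Lin28b), against 29.8% and 26.4% of all tested genes. The 8 genes did not share a direction, and the mean log2 level of the 8 was 5.18, 5.50 and 5.15 in WT and 4.89, 5.45 and 5.54 in Scl-/-. The lowest and the highest library on that mean were both Scl-/-, replicates 1 and 3.

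**Figure D2:**
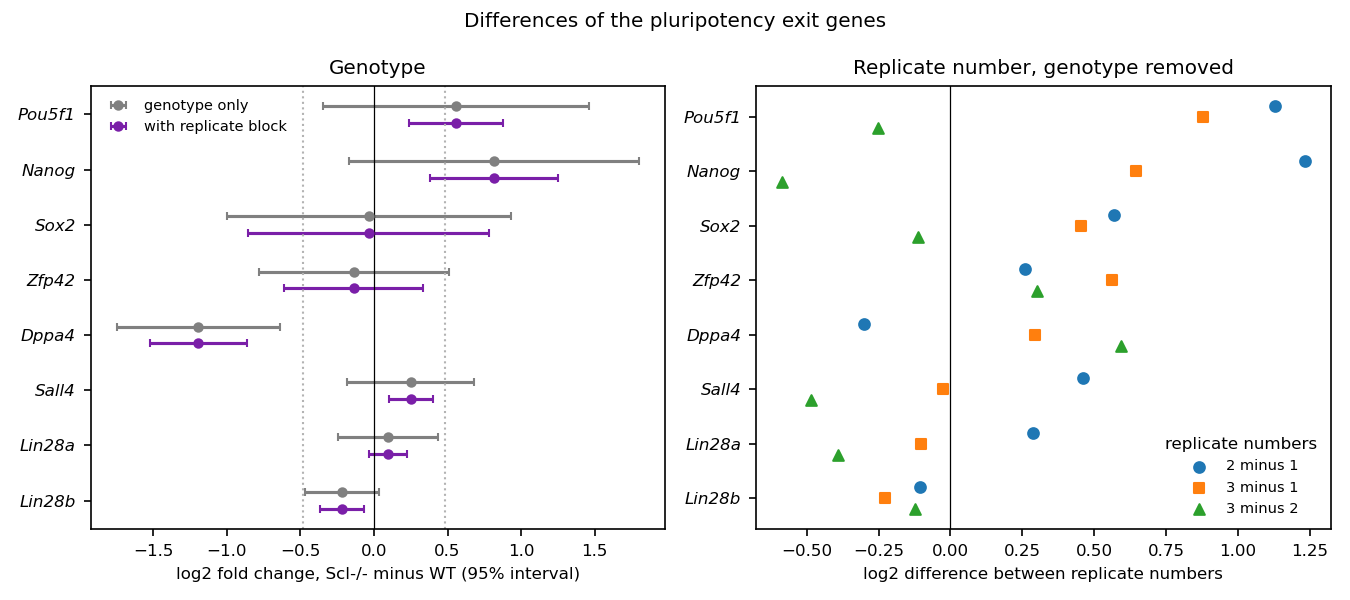
Left, log2 fold change of each gene between Scl-/- and WT with its 95% interval, from the fit on genotype alone (grey) and with the replicate block (purple), dotted lines at the fold threshold of 0.48; right, log2 differences between replicate numbers after genotype was taken out. The block narrowed every interval, and it separated those of Pou5f1, Nanog, Sall4 and Lin28b from 0.

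The replicate number was the second axis. It was taken to stand for the differentiation a library came from, which the labels do not state. The 3 replicate numbers were compared by a limma F test with genotype in the model, called at an adjusted p under 0.05 with no fold threshold. Of the 8 genes, 4 were called: Pou5f1 (adjusted p = 0.00750), Sall4 (adjusted p = 0.00772), Lin28a (adjusted p = 0.0128) and Nanog (adjusted p = 0.0170). Over all tested genes 32.5% were called, so change between replicate numbers was common. Sox2 (adjusted p = 0.503), Zfp42 (0.218), Lin28b (0.108) and Dppa4 (0.0715) did not pass this limma F test. Without WT 2, 0 of the 8 were called, and without Scl-/- 2, 1 was called. The largest difference between replicate numbers of each of the 4 changed little without WT 2 (1.19 for Pou5f1, 1.14 for Nanog, 0.38 for Lin28a and 0.44 for Sall4) and without Scl-/- 2 (1.07, 1.32, 0.40 and 0.53).

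The called genes had 2 patterns across the replicate numbers. Pou5f1 was 1.13 higher on the log2 scale in replicate 2 than in replicate 1, and 0.88 higher in replicate 3 than in replicate 1, with means of 69.3, 156 and 135 CPM over both genotypes. Nanog had the same order, with differences of 1.23 and 0.65 and means of 8.52, 21.2 and 15.3 CPM. The step from replicate 1 to replicate 3 was larger in Scl-/- for both genes. Nanog went from 7.50 to 8.06 CPM in WT and from 9.53 to 22.5 CPM in Scl-/-. Pou5f1 went from 67.1 to 92.3 CPM in WT and from 71.6 to 177.1 CPM in Scl-/-. The model fits 1 replicate difference for both genotypes, and whether it differed between them was not tested. Sall4 and Lin28a were raised in replicate 2 alone: Sall4 differed by 0.46 between replicates 2 and 1 and by -0.03 between 3 and 1, and Lin28a by 0.29 and -0.10. For Sall4 and Lin28a, both replicate 2 libraries lay above the other 4, as they did for 12.0% of all tested genes. For Pou5f1 and Nanog they did not, because Scl-/- 3 exceeded WT 2.

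The likeness between genes was measured as the root mean square difference of log2(CPM + 0.5), each gene centred on its own mean, over the 6 libraries. A small value means the same profile, and the libraries shared by all genes mean that this is a description only. Lin28a and Sall4 were the most alike pair of members (0.11), with a CPM ratio that stayed between 1.04 and 1.26 in all libraries. Pou5f1 and Nanog followed (0.21), with a CPM ratio from 7.24 to 11.5. Lin28a and Lin28b were at 0.23 and Sox2 and Zfp42 at 0.29, and the least alike pair was Nanog and Dppa4 (1.23).

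Beyond the 8, the gene most like Sox2 was Sox2ot (0.09, against a median of 0.56 over all genes), the lincRNA on the same strand within which Sox2 lies, with which it shares 0 exon bases. Sox2ot was at 5.34, 5.98 and 2.99 CPM in WT and 2.71, 5.56 and 7.73 CPM in Scl-/-, so its high and low libraries were those of Sox2, and the ratio of Sox2 to Sox2ot stayed between 0.735 and 0.911. Pipox (on chromosome 11) and Mt2 were next (0.17 and 0.19). The genes most like Pou5f1 were Tmem63a (on chromosome 1), Fam115c and Mgat5b (on chromosome 11), at 0.08 to 0.13. Those most like Nanog were Baalc, Slc5a7 and Wnt9b (on chromosome 11), at 0.10 to 0.11. For Dppa4 they were Slc48a1, Fbxo44 and Il1rl1 (0.07 to 0.09, the last on chromosome 1), each with every Scl-/- library below every WT library. For Zfp42 they were Pla2g4a, Xrcc5 and Acacb (0.09 to 0.11), the first 2 of them on chromosome 1. Lin28a was nearest to Rnaseh2b, Pdcd10 and D16Ertd472e, Lin28b to Mtbp, Wasf3 and Wipf1, and Sall4 to Dydc2, Hmgn5 and Slc31a1, all from 0.025 to 0.035.

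**Figure D3:**
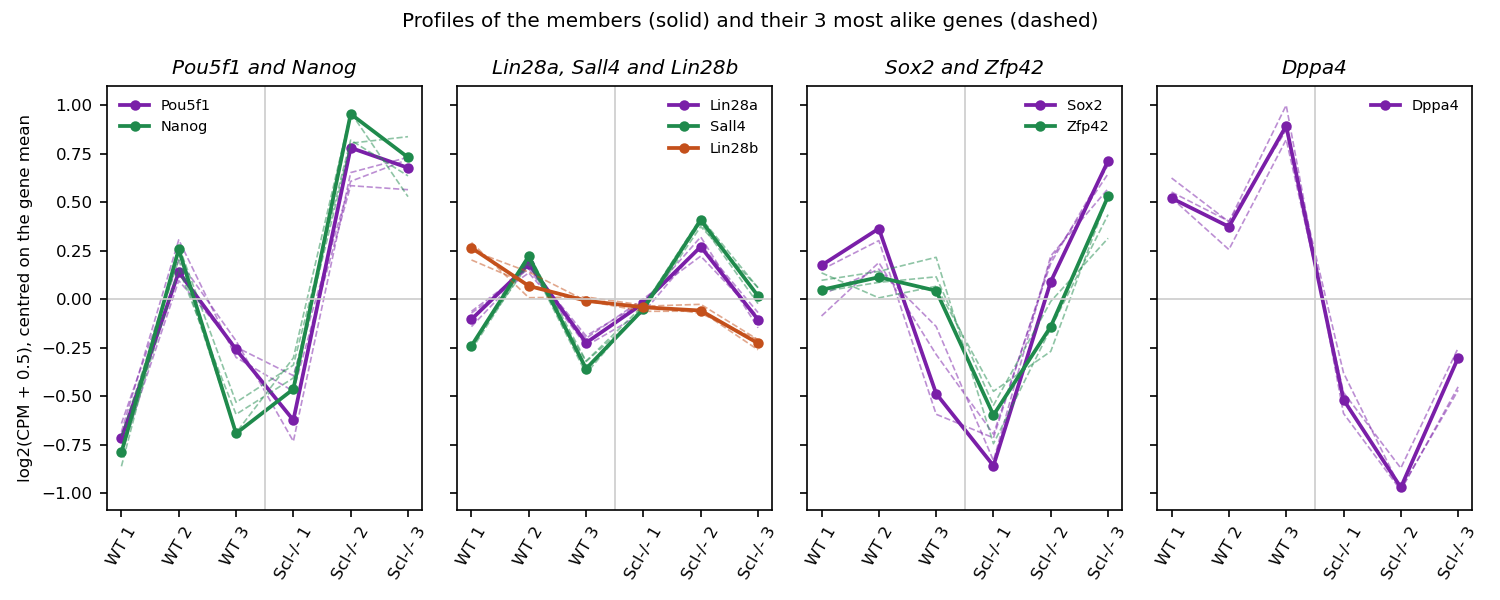
Profiles over the 6 libraries as log2(CPM + 0.5) centred on each gene's mean (vertical axis), members as solid lines with points and the 3 most alike other genes of each as dashed lines of the same colour. Pou5f1 and Nanog were high in Scl-/- 2 and 3, Lin28a and Sall4 in both replicate 2 libraries, Sox2 and Zfp42 lowest in Scl-/- 1 and highest in Scl-/- 3, and Dppa4 low in all Scl-/- libraries.

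To place the 8 genes, related lists were counted in the same fits. Over all tested genes, 6.04% were called higher and 6.60% lower with the block, and 0.793% and 1.57% on genotype alone. Of 21 other naive and core ES cell genes, 13 were in the table. On genotype alone 1 was called lower, Klf5, a factor shared by ES cells and other epithelia, at 39.7, 25 and 38.2 CPM in WT and 14.5, 7.25 and 9.0 CPM in Scl-/- (log2 fold change -1.72, limma adjusted p = 0.0264). With the block 2 were called lower (Klf5 and Esrrb) and 3 higher (Tdgf1, L1td1 and Dppa5a); Esrrb, L1td1 and Dppa5a are named here after their values were seen. Tdgf1, the NODAL co-receptor CRIPTO of the epiblast and streak, had the highest fold change of the list (log2 fold change 1.42, adjusted p = 0.000575 by limma with the block, and 0.268 without). The median log2 fold change of the 13 was -0.19. With the block, genes of this mixed list, like the 8, were thus called in both directions.

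Of 13 genes of the primed epiblast, 11 were in the table, and 6 were called higher and 0 lower with the block, with 0 called on genotype alone. With the block 6.04% of all tested genes were called higher and 6.60% lower. The median log2 fold change of the 11 was 0.72. Otx2, an early epiblast and anterior homeobox factor, was at 3.71, 26.9 and 5.15 CPM in WT and 5.96, 46.1 and 27.3 CPM in Scl-/- (log2 fold change 1.23, adjusted p = 0.0186 by limma with the block and 0.562 without). At the other end of the called genes was Zic5, another transcription factor of the epiblast and neural plate (log2 fold change 0.54, adjusted p = 0.0471 with the block and 0.386 without, limma). In Otx2, as in Pou5f1 and Nanog, WT 1 was the lowest and Scl-/- 2 the highest library. The summed CPM of the 11 ranged from 511 to 637 in WT and from 527 to 709 in Scl-/-.

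Most markers of the streak and mesoderm were called higher with the block. Of 9 genes, all in the table, 7 were called higher and 0 lower with the block, and 2 higher on genotype alone, with a median log2 fold change of 0.88. Among all tested genes, 6.04% were called higher with the block and 0.793% on genotype alone. Mesp1, a factor of nascent mesoderm, differed by 1.40 (adjusted p = 0.000156 by limma with the block, 0.153 without). The smallest called change was that of T (brachyury), the streak factor, at 0.74 (limma adjusted p = 0.000183 with the block, 0.0534 without). The summed CPM of the 9 ranged from 2019 to 2371 in WT and from 2475 to 3191 in Scl-/-. The other members of the list were not called: Kdr, the gene of the selected receptor, had a log2 fold change of -0.15 and Hand1 one of -0.45 (limma adjusted p = 0.125 and 0.0606 with the block). The part of a different mix of streak, epiblast and mesoderm cells in the values of Pou5f1 and Nanog was not tested.

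The other cell types in which members are known to persist were checked by their markers. For germ cells, 4 of 7 genes were in the table (Dppa3, Nanos3 and Dazl were not listed), at sums of 15 to 20.2 CPM in WT and 15.7 to 26.3 CPM in Scl-/-. With the block 2 germ cell genes were called higher, Dnd1 (log2 fold change 0.73, limma adjusted p = 0.00569) and Prdm1 (0.65, limma adjusted p = 0.0308), and 0 on genotype alone. For these and the next lists, the shares of all tested genes with the block were 6.04% higher and 6.60% lower. The other germ cell genes were not called: Tfap2c had a log2 fold change of 0.07 and Ddx4 one of -0.50 (limma adjusted p = 0.794 and 0.192 with the block). For the neural branch, 2 of 6 genes were in the table (Sox1, Sox21, Hes5 and Neurog2 were not listed), and Nes, an intermediate filament gene of progenitors, was called higher with the block (log2 fold change 0.76, adjusted p = 0.00124 by limma, 0.0599 without the block). Pax6, the other neural gene, was not called, and the median log2 fold change of the 2 was 0.40, below that of Nes. The sum of Nes and Pax6 ranged from 64.5 to 94.8 CPM in WT and from 114 to 127 CPM in Scl-/-. For endoderm, 2 of 7 were in the table, Foxa2, Hnf4a, Afp, Ttr and Apoa1 not being listed. Sox17, which hemogenic endothelium also expresses, was called lower with the block (log2 fold change -2.10, adjusted p = 6.78e-05 by limma, 0.124 without) and lies on chromosome 1. Cer1 had a log2 fold change of 0.85 and was not called (limma adjusted p = 0.0962 with the block). The sum of Sox17 and Cer1 ranged from 8.34 to 22.4 CPM in WT and from 3.12 to 8.44 CPM in Scl-/-. The part of these cell types in the members' values was not tested.

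The genes that act around LIN28 were called at a share near that of all genes. Of 13 genes of the LIN28 and let-7 pathway, all in the table, 1 was called higher and 1 lower with the block and 0 without, where with the block 6.04% of all genes were called higher and 6.60% lower. The median log2 fold change of the 13 was 0.08. Mycn, a MYC family gene and let-7 target, was called higher (log2 fold change 0.70, limma adjusted p = 0.00184 with the block, 0.184 without). Dis3l2, the nuclease that degrades uridylated let-7 precursors, was called lower (-0.57, limma adjusted p = 0.00477 with the block, 0.0716 without) and lies on chromosome 1. By replicate number 7 of the 13 were called, where 32.5% of all genes were. Of 9 repressors of pluripotency genes, 7 were in the table, and Cdx2, which represses Pou5f1 in trophoblast and acts in the posterior streak, was the only one called with the block. It stood at 43.7, 18.3 and 45.4 CPM in WT and 33.7, 13.6 and 22.1 CPM in Scl-/- (log2 fold change -0.60, limma adjusted p = 0.0142 with the block, 0.548 without). Cdx2 was lowest in the replicate 2 library of each genotype, where Pou5f1 and Nanog were highest. The highest Cdx2 level was that of WT 3, where Pou5f1 was at 92.3 CPM, with 67.1 CPM in WT 1 and 71.6 CPM in Scl-/- 1. A link between Cdx2 and these genes was not tested.

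**Figure D4:**
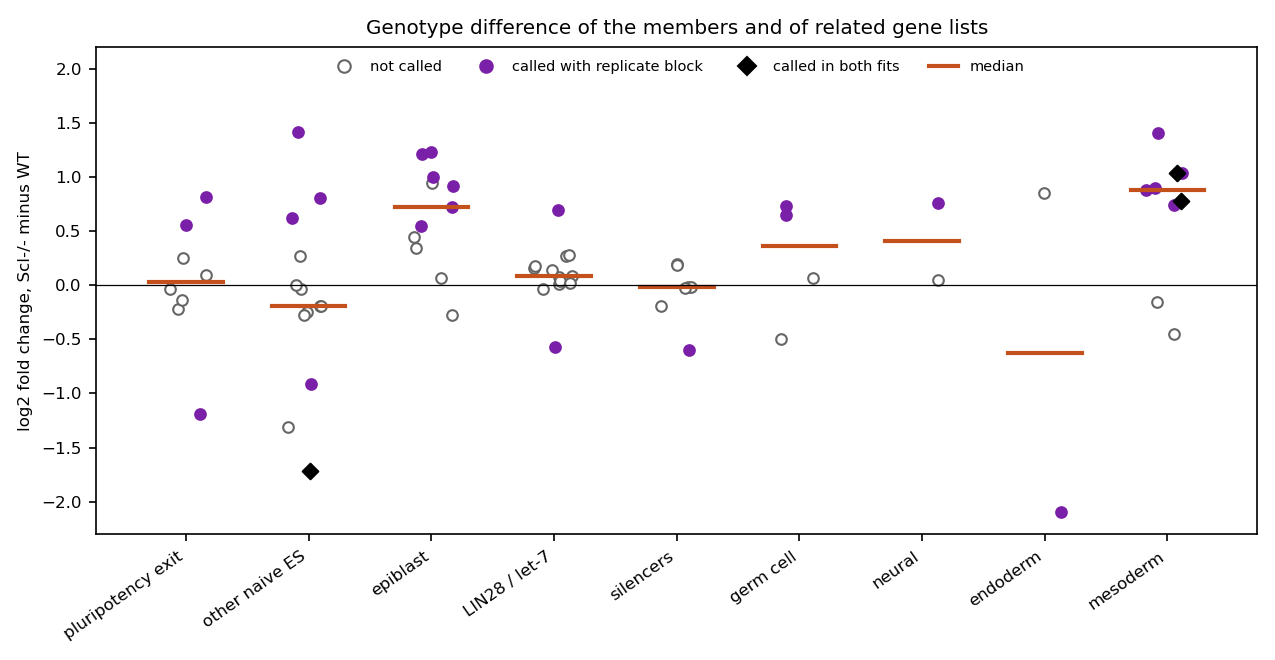
Log2 fold change between Scl-/- and WT (vertical axis) for the 8 genes and for each related list, 1 point a gene (open, not called; purple, called with the replicate block; black diamond, called in both fits) and an orange line at the list median. The 8 genes spread on both sides of 0 with a median of 0.03, while the medians of the epiblast and mesoderm lists were 0.72 and 0.88.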

How the data were processed

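Total RNA of the 6 libraries was aligned by the authors to mm9 with TopHat2 (2.0.8b), duplicates were removed and reads kept at a mapping quality above 15 with SAMtools (0.1.19). The deposited values are CPM scaled by the authors with the TMM method of edgeR; the tool that counted reads per gene is not given in the sources used here. Every deposited value was a whole multiple of 1 step in its library, within 0.1 read, from which reads on listed genes were obtained. Genes at 0.5 CPM or more in at least 3 libraries were kept (13991 of 14005). limma (3.58.1) was run on log2(CPM + 0.5) with an intensity trend and Benjamini-Hochberg adjustment, and was tested on simulated data. Groups and replicate numbers came from the labels. Deviations from the group means of same-numbered libraries correlated at 0.59, 0.76 and 0.75 across genes, and those of other numbers from -0.62 to -0.10. Each group was centred on its own mean, so positive same-number values force the others to be negative on balance. The negative values are therefore no separate support for the pairs. The design text gives 3 independent differentiations, and the labels do not say which libraries shared one. The numbers were taken as pairs on these correlations. A count of 3 reads, taken as the floor, was 0.0615 to 0.0784 CPM and covers counting error only. Alternatives were other pseudocounts, filters, a median-ratio scaling, no intensity trend, the replicate block and each library left out. Copies were searched with BLAST (2.17.0), at 300 bases and 90% identity or more. Named genes were all members, and from each other list the genes with the highest and lowest log2 fold change among those called with the block, the 3 most alike genes at a mean of 1 CPM or more, Kdr as the marker of the selection, and Tal1; Dppa2, Tfap2c, Ddx4, Pax6, Cer1 and Hand1 were named outside this rule after their values were seen. The members and lists were chosen with earlier results of these data known.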

Additional observations from a re-analysis of the deposited data

How the results depend on the processing

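On genotype alone the count of members called lower was 0 and became 1 (Dppa4) with the replicate block and 1 without the intensity trend (limma adjusted p = 0.0437); the count called higher was 0 and became 2 with the replicate block. Both counts stayed at 0 under the other pseudocounts, filters, median-ratio scaling and with any library left out. The median-ratio scaling moved the median of all genes by -0.01. The count called by replicate number was 4, fell to 0 when genotype was left out of the model, and ranged from 0 (without WT 2) to 6 (without WT 1) with single libraries left out. With single libraries left out the genotype fold change ranged from -0.40 to 0.38 for Sox2, with the positive values 0.38, 0.04 and 0.14 without Scl-/- 1, WT 1 and WT 2, from -0.44 to 0.13 for Zfp42, and from -0.014 (without Scl-/- 2) to 0.21 for Lin28a; no other member turned. Without the intensity trend the replicate number test lost Nanog and Lin28a (both adjusted p = 0.0590) and gained Dppa4 (adjusted p = 0.0472). The cause was not tested. The replicate block changed the call of no other member. With 3 libraries a group the precision is low, and Sox2, Zfp42 and Dppa4, at 62 to 429 reads, carry the most counting error.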

Other observations

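Genes of chromosome 1, which carries none of the members, had a median deviation from their own mean of 0.16, 0.12 and 0.16 on the log2 scale in WT 1 to 3 and of -0.24, -0.19 and 0.01 in Scl-/- 1 to 3. Scl-/- 3 therefore stood apart from the other Scl-/- libraries on this chromosome. Scl-/- 3 was also the library in which Sox2 and Zfp42 were highest, and 2 of the 3 genes most like Zfp42, Pla2g4a and Xrcc5, lie on chromosome 1; Xrcc5 was at 93.1, 96.1 and 101 CPM in WT and at 51.7, 78.3 and 118 CPM in Scl-/-. Chromosome 1 also holds 1 of the 3 genes most like Pou5f1 (Tmem63a) and 1 of the 3 most like Dppa4 (Il1rl1, at 0.748 CPM in Scl-/- 3, below all WT libraries), so such genes were not particular to Zfp42. These values were looked up after the profiles were seen.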
